A study of Mus musculus with 35 samples.

Results

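Neuropeptide Y (Npy) and its 3 receptor genes expressed in these libraries, Npy1r, Npy2r and Npy5r, were followed through the amygdala of female mice. The members were chosen by gene symbol, which the annotation pairs with 1 Ensembl gene each, giving 4 of the 52636 genes counted. RNA was sequenced from cells of the basolateral amygdala that were cut out of stained brain sections with a laser microscope, separately in an anterior and a posterior portion. The 35 libraries came from 19 mice, 16 libraries from the anterior and 19 from the posterior portion, and 16 mice (6 C57BL/6J and 10 B6D2F1N) gave a library of each. The anterior libraries came from 4 C57BL/6J mice in standard and 2 in enriched housing, and from 5 B6D2F1N mice in standard and 5 in enriched housing. The posterior libraries came from 4 and 4 C57BL/6J mice and from 5 and 6 B6D2F1N mice in standard and enriched housing.

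C57BL/6J is an inbred strain, and B6D2F1N is a first-generation cross of C57BL/6 with DBA/2 mice. Enriched housing added 1 h per day in a playground cage from postnatal day 77 on, while the control environment consisted of mock handling in the standard cage. All groups shared a reduced body weight through limited feeding, training from postnatal day 70 on a touchscreen task with a sweet milk reward, which lasted 37 to 90 days, and a judgment bias test of 5 days, so that no group was fed freely. Responses to ambiguous cues as to the better-rewarded cue gave a high optimism score. The mice of the highest scores are called optimists and those of the lowest scores pessimists, and the others were in neither group. The study's methods assign coordinates closer to bregma to the portion called posterior. If the names had been exchanged, each portion difference given here would have the opposite sign.

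Neuropeptide Y is a secreted peptide of the brain. In the cortex and basolateral amygdala it is made mainly by GABAergic interneurons, many of which also make somatostatin. Its receptors couple to Gi/o proteins and lower neuronal excitability. The Y1 receptor (Npy1r) sits mainly on the receiving neuron and mediates anxiety-reducing actions of the peptide in the amygdala, the Y2 receptor (Npy2r) sits largely on axon terminals, where it restrains release of transmitter and of the peptide itself, and the Y5 receptor (Npy5r) is best known for its part in feeding. The peptide is also known as a signal of food shortage in the hypothalamus.

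On GRCm38, Npy (ENSMUSG00000029819) lay on chromosome 6 from 49822710 to 49829507 on the plus strand, with 566 bases of exon. Npy2r (ENSMUSG00000028004) lay on chromosome 3 from 82538383 to 82548084 on the minus strand, with 3383 bases of exon. Npy1r (ENSMUSG00000036437, chromosome 8, 66697192 to 66706792, plus strand, 3454 bases of exon) and Npy5r (ENSMUSG00000044014, chromosome 8, 66679965 to 66688128, minus strand, 2555 bases of exon) were neighbours that pointed away from each other, with 9063 bases between them. No other annotated gene overlapped any of the 4. Stretches of at least 60 bases with at least 97% identity to another gene were found in Npy1r alone, where they covered 195 of the 3001 bases of a transcript, so that its counts carry a small uncertainty of assignment. The reference sequences before the start sites of Npy, Npy2r and Npy5r, from RefSeq on GRCm38.p6, are shown because the portion results turn on these 3 genes. Capitals mark the GC box (GGGCGG, the core motif of Sp1-type factors) in Npy and Npy2r, and the E-box CACGTG in Npy5r. The stretches are Npy chr6:49822460-49822709 (plus strand), Npy2r chr3:82548086-82548335 (minus strand) and Npy5r chr8:66688129-66688344 (minus strand), each written along the gene's own strand and ending before the first base of the gene in the annotation used here.
Npy: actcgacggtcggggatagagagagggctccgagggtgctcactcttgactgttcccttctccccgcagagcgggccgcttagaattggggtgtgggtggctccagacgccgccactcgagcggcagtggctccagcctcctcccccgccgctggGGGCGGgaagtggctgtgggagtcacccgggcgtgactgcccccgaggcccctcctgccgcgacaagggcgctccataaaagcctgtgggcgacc
Npy2r: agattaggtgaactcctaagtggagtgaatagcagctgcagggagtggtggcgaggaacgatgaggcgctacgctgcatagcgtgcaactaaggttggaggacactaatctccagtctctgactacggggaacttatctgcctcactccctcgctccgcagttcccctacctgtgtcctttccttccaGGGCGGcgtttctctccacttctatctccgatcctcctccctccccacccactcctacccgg
Npy5r: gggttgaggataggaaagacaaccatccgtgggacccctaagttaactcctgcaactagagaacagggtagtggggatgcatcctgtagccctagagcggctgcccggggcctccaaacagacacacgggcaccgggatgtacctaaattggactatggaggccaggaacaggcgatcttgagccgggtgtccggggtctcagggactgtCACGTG
The GC box stood 95 to 90 bases before the RefSeq start site in Npy and 62 to 57 bases before it in Npy2r. The E-box stood 40 to 35 bases before the start site of Npy5r. The part of these motifs in the portion differences was not tested. Of the 32851 promoter sequences of the reference, 32.7% held GGGCGG and 6.0% held CACGTG on either strand. The cAMP response element core TGACG (17.8% of all promoters) and the TATA box TATAAA (12.4%) were also searched on both strands, and neither was in the 3 stretches.

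All 4 genes were counted in every library. The gene counts of a library summed to between 16938534 and 27352623, with medians of 21668820 in the anterior and 21409708 in the posterior portion. Raw counts per library were 913 to 7441 for Npy, 612 to 2494 for Npy1r, 532 to 3210 for Npy2r and 94 to 582 for Npy5r. Libraries of 2 mice stood apart. Both libraries of B6D2F1N standard mouse 1 had 0 counts of Xist, which is expressed from the inactive X chromosome in females. Male-specific genes were close to silent in all 35 libraries together, with 2 counts of Kdm5d, 1 each of Uty and Eif2s3y and 0 of Ddx3y. Why Xist was missing in this mouse was not tested. The anterior library of B6D2F1N enriched mouse 1 held more choroid plexus RNA than any other anterior library. Results without each of these 2 mice are given with the portion differences. The remaining genes of the family were close to silent. Pyy, which encodes peptide YY, had 0 counts in the 35 libraries, a total that allows up to 3 counts by counting error. Ppy (pancreatic polypeptide) and Npy6r had 4 counts each in all libraries together, and Npy4r, the pancreatic polypeptide receptor gene, reached at most 0.428 CPM. CPM here are counts relative to the library total, scaled by the TMM method over all libraries.

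Per kilobase of exon, a scale that allows levels of different genes to be compared, Npy was by far the most abundant of the 4. In the anterior portion its level averaged 422 ± 146 CPM per kilobase (SD, n = 16), followed by Npy1r at 23.2 ± 7.46, Npy2r at 14.8 ± 5.14 and Npy5r at 6.79 ± 1.65. Npy exceeded Npy1r in 16 of 16 anterior libraries and Npy2r exceeded Npy5r in 15 of 16, but Npy1r and Npy2r lay within reach of each other's spread, with Npy1r above Npy2r in 13 of 16. In the posterior portion (n = 19) the order of these neighbours was turned. Npy averaged 159 ± 56.4 CPM per kilobase, Npy2r 26.8 ± 8.88, Npy1r 16.9 ± 5.30 and Npy5r 4.41 ± 1.70. Here Npy2r was above Npy1r in 16 of 19 libraries, and Npy1r was above Npy5r in 19 of 19.

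The first comparison asked how the members differed between the portions of the same mouse. The posterior portion held less Npy in both strains. The lower Npy5r and higher Npy2r levels passed the threshold in B6D2F1N mice but not in C57BL/6J mice. There the log2 differences had the same signs (-0.41 for Npy5r and 1.01 for Npy2r). No member had a portion by strain interaction past the threshold, so a strain difference was not shown. No difference of Npy1r passed the threshold. The tests were edgeR's quasi-likelihood F tests with the mouse as a block, with Benjamini-Hochberg adjustment of the p-values across every gene tested and a threshold of 0.05. In C57BL/6J mice 1 of the 4 members was called, where 3.64% of all 25751 tested genes were (1.54% higher and 2.1% lower in the posterior portion). In B6D2F1N mice 3 of the 4 were called, where 4% of 27761 tested genes were (1.62% higher, 2.37% lower). Over all 16 mice in 1 fit, again 3 of 4 were called, against 8.6% of 29437 tested genes (3.91% higher, 4.69% lower).

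**Figure D1:**
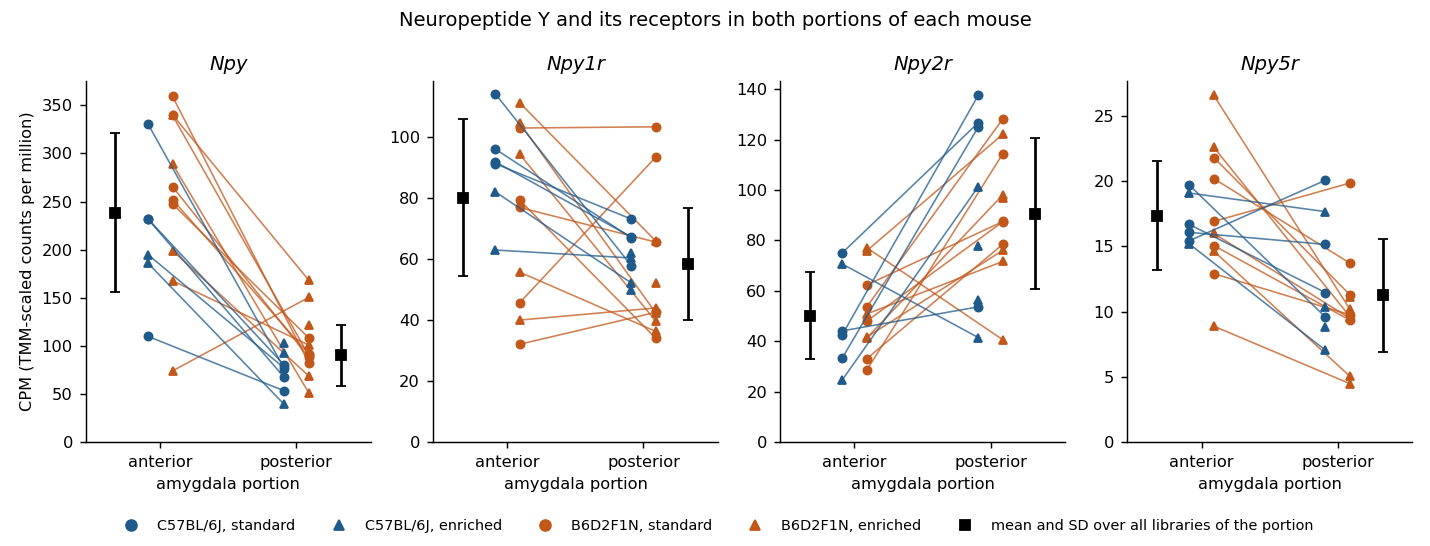
Level of each gene (y axis, TMM-scaled CPM, starting at 0) in the anterior and posterior portion (x axis) of each mouse. Lines join the portions of 1 mouse, colours give the strain, circles standard and triangles enriched housing, and black squares with bars the mean and SD over the 16 anterior and 19 posterior libraries. Npy lines fall in 15 of 16 mice and Npy2r lines rise in 14 of 16.

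Npy, the ligand, showed the largest portion difference of the 4. In the 6 C57BL/6J mice with both portions, the anterior libraries held 232, 110, 232 and 330 CPM in standard housing and 195 and 186 CPM in enriched housing. The posterior libraries of the same mice held 67.3, 53.3, 80.1 and 76.6 CPM in standard and 77.0 and 39.2 CPM in enriched housing. Each mouse had less in the posterior portion, and the lowest anterior library (110 CPM) was above the highest posterior one (80.1 CPM), so that the groups did not overlap. The fitted level was 3.19-fold lower in the posterior portion (log2 difference -1.67, SE 0.17, adjusted p = 1.29e-05 by edgeR). In the 10 B6D2F1N mice, anterior libraries ranged from 74.0 to 359 CPM with a median of 259 CPM. Their posterior libraries ranged from 51.4 to 168 CPM with a median of 91.1 CPM. Here 9 of 10 mice had less Npy in the posterior portion, and the groups overlapped. The exception was enriched mouse 2, which had the lowest anterior level of all (74.0 CPM) and 150 CPM in the posterior portion. The fit gave a 2.52-fold lower level (log2 difference -1.33, SE 0.24, edgeR adjusted p = 0.00328). The portion by strain interaction was 0.29 on the log2 scale for Npy (95% confidence interval -0.40 to 0.97, edgeR adjusted p = 1). It was 0.18 for Npy1r (-0.40 to 0.77), -0.05 for Npy2r (-0.79 to 0.69) and -0.32 for Npy5r (-1.01 to 0.37). In this interaction 0% of genes were called.

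Npy1r, the Y1 receptor gene, had lower values in the posterior portion of 12 of 16 mice, without passing the threshold. In C57BL/6J mice the anterior libraries held 95.9, 114, 91.8 and 91.1 CPM in standard and 62.9 and 81.9 CPM in enriched housing, against 66.9, 57.8, 67.1 and 73.0 CPM and 60.3 and 52.1 CPM in the posterior libraries of the same mice. All 6 of these mice had a lower posterior value, and the groups overlapped only through the anterior library of enriched mouse 1. The log2 difference was -0.50 (95% confidence interval -0.83 to -0.16, edgeR adjusted p = 0.111). B6D2F1N mice were split, with 6 of 10 lower and 4 higher in the posterior portion, a range of 32.0 to 111 CPM in the anterior and 34.0 to 103 CPM in the posterior libraries, and a log2 difference of -0.38 (95% confidence interval -0.82 to 0.06, edgeR adjusted p = 0.416). Over all mice the difference was -0.42 (SE 0.14, edgeR adjusted p = 0.0730). DESeq2 put the C57BL/6J difference at -0.49 with an adjusted p of 0.0454, on the other side of the threshold.

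Npy2r, the gene of the Y2 receptor, was the only one of the 4 that was higher in the posterior portion. In B6D2F1N mice the anterior libraries ranged from 28.5 to 77.1 CPM with a median of 49.4 CPM, and the posterior ones from 40.6 to 128 CPM with a median of 87.5 CPM. It was higher in 9 of 10 mice, and only enriched mouse 1 went the other way, from 77.1 CPM to 40.6 CPM. The fitted level was 1.79-fold higher (log2 difference 0.84, SE 0.21, edgeR adjusted p = 0.0234). Without standard mouse 4 or enriched mouse 2, the adjusted p was 0.0575 or 0.0546. In C57BL/6J mice, the anterior libraries held 44.1, 75.1, 33.3 and 42.6 CPM in standard and 24.6 and 70.7 CPM in enriched housing, and the posterior ones 53.7, 127, 125 and 138 CPM and 101 and 41.5 CPM. Here 5 of 6 mice had higher posterior values, with enriched mouse 3 as the exception, and the groups overlapped. The log2 difference of 1.01 (SE 0.29) had an edgeR adjusted p of 0.0698. Without enriched mouse 3 it was 1.35, with an adjusted p of 0.00158, and DESeq2 called it with all mice (adjusted p = 0.0165). Over all 16 mice the level was 1.88-fold higher in the posterior portion (log2 difference 0.91, SE 0.19, edgeR adjusted p = 0.00164).

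Npy5r, the least abundant receptor gene, was lower in the posterior portion of 14 of 16 mice. In B6D2F1N mice the anterior libraries ranged from 8.88 to 26.6 CPM with a median of 16.5 CPM (enriched mouse 3 the lowest and enriched mouse 4 the highest), and the posterior ones from 4.47 to 19.9 CPM with a median of 9.69 CPM. The groups overlapped, and standard mouse 5 was the only one of 10 with a higher posterior value. The fitted level was 1.77-fold lower (log2 difference -0.82, SE 0.21, edgeR adjusted p = 0.0319). This call was close to the threshold, since leaving out a single mouse moved the adjusted p above 0.05 for 7 of the 10 mice (standard mice 1, 3 and 4 and enriched mice 1, 3, 4 and 6), to at most 0.0916, with differences between -0.94 and -0.71. Without the mouse as a block it was -0.77, with an adjusted p of 0.0638. In C57BL/6J mice the anterior libraries held 19.7, 15.4, 16.7 and 16.1 CPM in standard and 19.1 and 15.2 CPM in enriched housing, against 9.58, 20.1, 11.5 and 15.1 CPM and 17.7 and 7.04 CPM in the posterior portion. These values overlapped, and the log2 difference of -0.41 (95% confidence interval -0.95 to 0.13) did not pass the threshold (edgeR adjusted p = 0.560). Over all mice it was -0.66 (SE 0.16, edgeR adjusted p = 0.00839). Whether the portion differences of Npy5r and its neighbour Npy1r differ from each other was not tested.

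The balance of the receptor genes differed between the portions. Per kilobase, the level of Npy2r was on average 0.693 ± 0.293 of that of Npy1r in the anterior portion (n = 16), and the ratio was above 1 in 3 of 16 libraries. In the posterior portion the ratio averaged 1.66 ± 0.571 (n = 19) and was above 1 in 16 of 19 libraries. Within mice it was higher in the posterior portion in 14 of 16, namely in all C57BL/6J mice but 1 of 6 and in all B6D2F1N mice but 1 of 10. Of the summed level of the 3 receptor genes, Npy1r made up 51.0 ± 8.16% in the anterior and 35.7 ± 7.76% in the posterior portion. The share of Npy2r was 33.3 ± 8.22% and 55.2 ± 7.79%, and that of Npy5r 15.8 ± 4.27% and 9.09 ± 1.91%. These shares restate the levels given above and were not tested again.

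**Figure D2:**
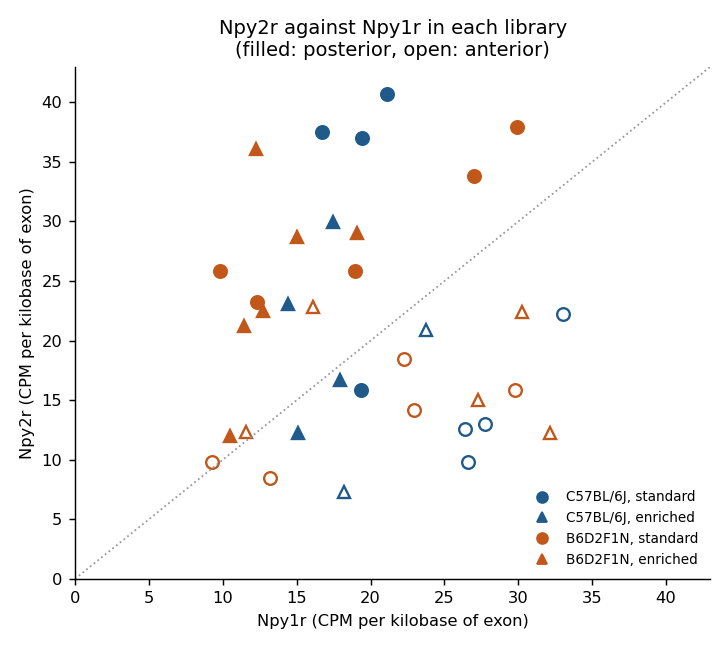
Level of Npy2r (y axis) against Npy1r (x axis), both in CPM per kilobase of exon, in each of the 35 libraries. Filled symbols are posterior and open symbols anterior libraries, colours and shapes give strain and housing, and the dotted line marks equal levels; 16 of 19 posterior and 3 of 16 anterior libraries lie above it.

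In bulk RNA, fewer cells of a type and less RNA per cell cannot be told apart, and the make-up of the portions differed. All 6 choroid plexus markers were higher in the posterior portion in the fit over all mice, among them Ttr (transthyretin, log2 difference 7.09, SE 0.60). Their summed level ran from 6.62 to 940 CPM in anterior and from 118 to 14376 CPM in posterior libraries, and Aqp1 was at 0 counts in 13 of 16 anterior libraries. All 4 ependymal markers were higher too (summed level 0 to 22.6 CPM against 3.35 to 146 CPM). Of the 5 meningeal fibroblast markers, Dcn was higher (log2 difference 4.24, SE 0.58). Summed levels were 31.2 to 80.0 CPM (median 57.7) in anterior and 47.0 to 1758 CPM (median 743) in posterior libraries. The posterior sum was mostly Dcn, which averaged 26.6 CPM in anterior and 733 CPM in posterior libraries. The others averaged 1.52 and 2.94 CPM (Col1a1), 7.99 and 8.18 CPM (Col1a2), 4.61 and 12.0 CPM (Lum) and 15.4 and 37.8 CPM (Igf2). Of the 5 astrocyte markers, Aqp4, Gfap and Gja1 were higher (summed level 1785 to 3294 against 2332 to 5356 CPM), and of the 3 hippocampal markers C1ql2 was (18.8 to 64.4 against 18.2 to 118 CPM). Within C57BL/6J mice the hippocampal marker Spink8 was called higher too. Flt1 was the only one of 5 endothelial markers called, and lower. Of the 4 basolateral amygdala markers, Rspo2 (log2 difference -3.18, SE 0.38) and Cyp26b1 (-5.01, SE 0.62) were lower in the posterior portion and 2 did not pass. Those 2 averaged 33.7 and 42.2 CPM (Ppp1r1b) and 132 and 99.5 CPM (Lmo3) in anterior and posterior libraries. The summed level of all 4 was 151 to 588 CPM in anterior and 82.7 to 333 CPM in posterior libraries. Its fall came mostly from Rspo2 (192 and 21.8 CPM) and Cyp26b1 (70.0 and 5.17 CPM). Cyp26b1 was at 0 counts in 3 of 19 posterior libraries, which allows up to 3 counts by counting error. Of the 6 excitatory markers, Slc17a7, Tbr1 and Neurod6 were lower and Slc17a6 higher in the posterior portion (summed level 1833 to 4506 against 1087 to 5552 CPM). Of the 7 inhibitory markers only Vip was lower, and the summed level was 743 to 1586 CPM in anterior and 527 to 1598 CPM in posterior libraries. Striatal or central amygdala markers summed to 259 to 1307 CPM (median 437) in anterior and 115 to 3109 CPM (median 968) in posterior libraries. Intercalated neuron markers summed to 32.4 to 290 CPM (median 55.8) and 28.3 to 266 CPM (median 90.6). The values of both lists overlapped between the portions. The part of tissue make-up in the portion differences of the members was not tested. The fits on fewer mice given next could not test it. Posterior libraries kept there still summed to 118 to 1782 CPM of choroid plexus markers, where the anterior median was 12.2 CPM.

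These fits, chosen after seeing the data, held only the mice with the lower choroid plexus sums in their posterior library, ranked within each strain. With 8 mice (sums of 118 to 1782 CPM), the difference of Npy over both strains was at -1.33 (SE 0.27, edgeR adjusted p = 0.00618) and Npy2r at 1.05 (SE 0.18, adjusted p = 0.00156), while Npy5r was at -0.55 (SE 0.25, adjusted p = 0.321) and Npy1r at -0.75 (SE 0.17, adjusted p = 0.0153), now past the threshold. Within the 5 B6D2F1N mice of lower sums, the log2 differences were -1.22 for Npy (edgeR adjusted p = 0.140), -0.92 for Npy1r (0.0342), 0.79 for Npy2r (0.0508) and -0.91 for Npy5r (0.209). Within the 3 C57BL/6J mice they were -1.46 for Npy (edgeR adjusted p = 0.00756), 1.53 for Npy2r (0.00657), -0.42 for Npy1r (0.920) and 0.09 for Npy5r (1), the last on the other side of 0 from the value over 6 mice. The anterior library with the highest choroid plexus sum (940 CPM) and the lowest basolateral sum (151 CPM) was that of B6D2F1N enriched mouse 1. Without this mouse, the differences over the remaining mice were -1.50 for Npy, 1.03 for Npy2r and -0.59 for Npy5r, each still past the threshold. Without B6D2F1N standard mouse 1, whose libraries had no Xist counts, the differences were -1.45 for Npy, 0.94 for Npy2r and -0.64 for Npy5r, again past the threshold.

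The genes that make and release a neuropeptide were examined as lists. Of 7 peptide processing genes, 4 were lower in the posterior portion in the fit over all mice and none was higher. They were the prohormone convertases Pcsk1 (log2 difference -1.09, SE 0.13) and Pcsk2 (-1.30, SE 0.12), which cut peptide precursors, the carboxypeptidase Cpe (-0.44, SE 0.14), which trims the cut ends, and Scg5 (-0.29, SE 0.09), a chaperone of Pcsk2. The median of the 7 was -0.44, beside 0.12 for all genes tested. Pcsk1 averaged 218 ± 73.0 CPM in anterior (n = 16) and 102 ± 47.3 CPM in posterior libraries (n = 19). Pam, which amidates the peptide, was at -0.20 (SE 0.12), and Dpp4, whose product clips the start of the peptide, at -1.50 (SE 0.77), and neither passed. Pcsk1 and Pcsk2 were also the 2 genes of the list called within each strain.

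Of 6 dense core vesicle genes, 4 were lower and none higher, namely the granins Chga (log2 difference -0.98, SE 0.13) and Chgb (-1.97, SE 0.17), which pack the vesicles, and the release factors Cadps (-0.46, SE 0.10) and Cadps2 (-0.48, SE 0.14). The list median was -0.47. Anterior libraries averaged 2987 ± 1124 CPM of Chgb (n = 16) and posterior ones 749 ± 318 CPM (n = 19). Of 10 genes of Gi/o and potassium channel signalling, through which the receptors act, 3 were lower (Gnao1 at -0.29, Gnaz at -0.44 and Arrb1 at -0.39), none was higher and the median was -0.07. The GIRK channel genes Kcnj3 (-0.11, SE 0.10), Kcnj6 (-0.03, SE 0.20) and Kcnj9 (-0.30, SE 0.11) did not pass. The list sizes are small, and 8.6% of all genes tested were called in this fit.

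Of 14 genes listed for classes of Npy-expressing interneurons, 5 were lower and 3 higher in the posterior portion, with a median of -0.16. Lower were Ndnf (log2 difference -1.92, SE 0.32), Reln (-1.15, SE 0.24) and Lamp5 (-0.65, SE 0.13), listed for neurogliaform cells. Satb1 (-2.17, SE 0.22), a chromatin organizer, and Crhbp (-0.92, SE 0.19), which encodes a binding protein for corticotropin-releasing hormone, were lower too. Those higher were Chodl (1.47, SE 0.37), Tacr1 (2.09, SE 0.51) and Nos1 (0.58, SE 0.16), listed for long-range projecting somatostatin cells. Satb1 averaged 96.0 CPM in anterior and 22.5 CPM in posterior libraries, where Lhx6 of the same list averaged 11.3 and 14.4 CPM. Which cells held the RNA of the listed genes was not tested. Sst, the gene of somatostatin, averaged 477 ± 114 CPM in anterior libraries against 474 ± 229 CPM in posterior ones, a difference of -0.10 (95% confidence interval -0.43 to 0.23). Gad1 and Gad2, the GABA-making enzymes, were at -0.20 (SE 0.12) and -0.29 (SE 0.14), and neither passed. The difference between Npy and Sst was not tested itself.

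**Figure D3:**
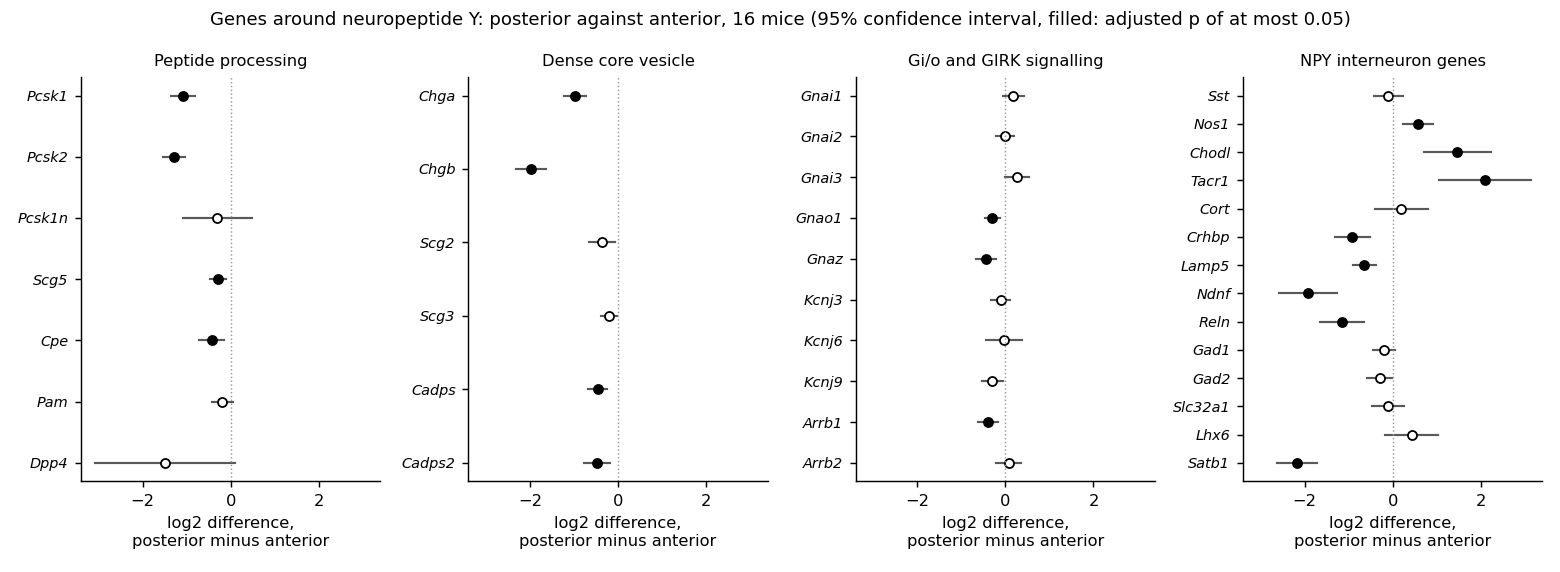
Log2 difference between the posterior and anterior portion (x axis) for the genes of 4 lists (y axis), fitted over 16 mice. Bars are 95% confidence intervals and filled points have an edgeR adjusted p of at most 0.05; 4 of 7 processing genes and 4 of 6 vesicle genes lie below 0 with filled points, and the interneuron genes lie on both sides.

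The strains were compared within each housing and portion. In these 4 comparisons no member was called (16 tests, lowest edgeR adjusted p = 0.475), 1 reached an unadjusted p under 0.05 and DESeq2 called 0. Between 0.0639% and 0.394% of all genes were called in them. The member with the smallest p was Npy in standard posterior libraries. The 4 C57BL/6J mice had 67.3, 53.3, 80.1 and 76.6 CPM, and the 5 B6D2F1N mice 88.2, 90.4, 91.7, 108 and 82.5 CPM. The groups did not overlap, but Npy was not called. The log2 difference was 0.42 (95% confidence interval 0.03 to 0.82, unadjusted p = 0.0378 and adjusted p = 0.475 by edgeR), and 2605 of the 25171 genes tested there had an unadjusted p under 0.05, while 0.373% of all genes were called. In enriched posterior libraries the Npy difference was 0.51 (95% confidence interval -0.20 to 1.22), with 77.0, 103, 39.2 and 92.3 CPM in C57BL/6J and 51.4 to 168 CPM (median 111) in B6D2F1N mice, which overlapped. Npy1r in standard anterior libraries was at -0.54 (95% confidence interval -1.11 to 0.02, edgeR adjusted p = 0.569), with 91.1 to 114 CPM in C57BL/6J and 32.0 to 103 CPM in B6D2F1N mice. The intervals of Npy2r and Npy5r included 0 in each strain comparison. Among the lists, Pam and Scg5 of the processing genes were higher in B6D2F1N mice in standard anterior libraries, and no other gene of the 4 lists was called in a strain comparison. Mean levels were higher in B6D2F1N mice in both portions, over both housings in the mice with both portions. Pam averaged 86.1 against 143 CPM in anterior and 71.3 against 130 CPM in posterior libraries. Scg5 averaged 724 against 1317 CPM and 640 against 1044 CPM.

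Enriched housing was compared with standard housing within each strain and portion. No member was called (16 tests, lowest edgeR adjusted p = 0.486, 0 at an unadjusted p under 0.05, 0 called by DESeq2). In 3 of these 4 comparisons 0% of all genes were called by edgeR, and in C57BL/6J posterior libraries 0.0163% were. The largest difference was that of Npy2r in C57BL/6J posterior libraries. The mice in standard housing had 53.7, 127, 125 and 138 CPM, and those in enriched housing 101, 56.6, 41.5 and 77.9 CPM. The values overlapped, and the log2 difference was -0.68 (95% confidence interval -1.36 to 0.01). With the library number from the sample titles as a covariate it was -1.30 (SE 0.40, edgeR adjusted p = 0.320). In the same libraries this covariate moved Npy5r from -0.36 to -0.88 and turned the direction of Npy from 0.17 to -0.65, none of them called. In the posterior libraries of B6D2F1N mice, Npy5r had 11.3, 9.76, 9.34, 13.7 and 19.9 CPM in standard and 4.47 to 11.1 CPM (median 9.55) in enriched housing, a difference of -0.63 (95% confidence interval -1.29 to 0.03). In the same libraries Npy1r had 65.4, 34.0, 42.5, 103 and 93.2 CPM in standard and 36.2 to 65.8 CPM (median 43.1) in enriched housing, a difference of -0.54 (95% confidence interval -1.10 to 0.02). The posterior values of all 3 receptor genes were lower on average in enriched housing in both strains, with intervals that included 0, and none was called. How many of all genes were lower in both strains was not counted. The 3 genes are also not separate observations, since Npy2r and Npy5r correlated across the posterior libraries (Pearson's r of 0.719). Oligodendrocyte markers moved with housing in the C57BL/6J posterior libraries, with summed levels of 8148 to 12766 CPM in standard and 18110 to 28342 CPM in enriched housing, and 1 of the 7, Mbp (myelin basic protein), was called higher (log2 difference 1.97, SE 0.27). In B6D2F1N posterior libraries these sums overlapped (2373 to 23485 CPM and 6879 to 16426 CPM). Their part in the receptor values was not tested. Npy itself differed by 0.17 (95% confidence interval -0.42 to 0.76) in C57BL/6J and 0.25 (-0.30 to 0.80) in B6D2F1N posterior libraries. Without C57BL/6J enriched mouse 3 the former was 0.40, and without enriched mouse 2 it was at 0.00015. The paper lists more anterior tissues from enriched housing, in both strains, than the libraries used here. Of C57BL/6J mice in enriched housing, only 2 were analysed in the anterior portion. Their Npy1r values of 62.9 and 81.9 CPM lay below the 4 standard values of 91.1 to 114 CPM, at a difference of -0.46 (95% confidence interval -0.95 to 0.03) that was not called. In that comparison 1418 of the 22865 genes tested had an unadjusted p under 0.05. With the library number as a covariate, the Npy1r difference was -0.15.

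The portion difference was also compared between the housings over the 16 paired mice. The interaction was -0.63 for Npy2r (95% confidence interval -1.35 to 0.09), -0.56 for Npy5r (-1.23 to 0.12), -0.42 for Npy1r (-0.99 to 0.16) and 0.37 for Npy (-0.30 to 1.05). These values rested on single mice, since that of Npy2r was -0.29 without C57BL/6J enriched mouse 3, -0.41 without B6D2F1N enriched mouse 1 and -0.997 without C57BL/6J enriched mouse 1, and that of Npy was 0.07 without B6D2F1N enriched mouse 2, 0.58 without C57BL/6J enriched mouse 3 and 0.60 without B6D2F1N enriched mouse 6. None passed (edgeR adjusted p = 1 for each), and 0% of all genes were called. Of the strain by housing interactions, that of Npy1r in anterior libraries was the largest at 0.71 (95% confidence interval -0.30 to 1.73, edgeR adjusted p = 0.978).

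**Figure D4:**
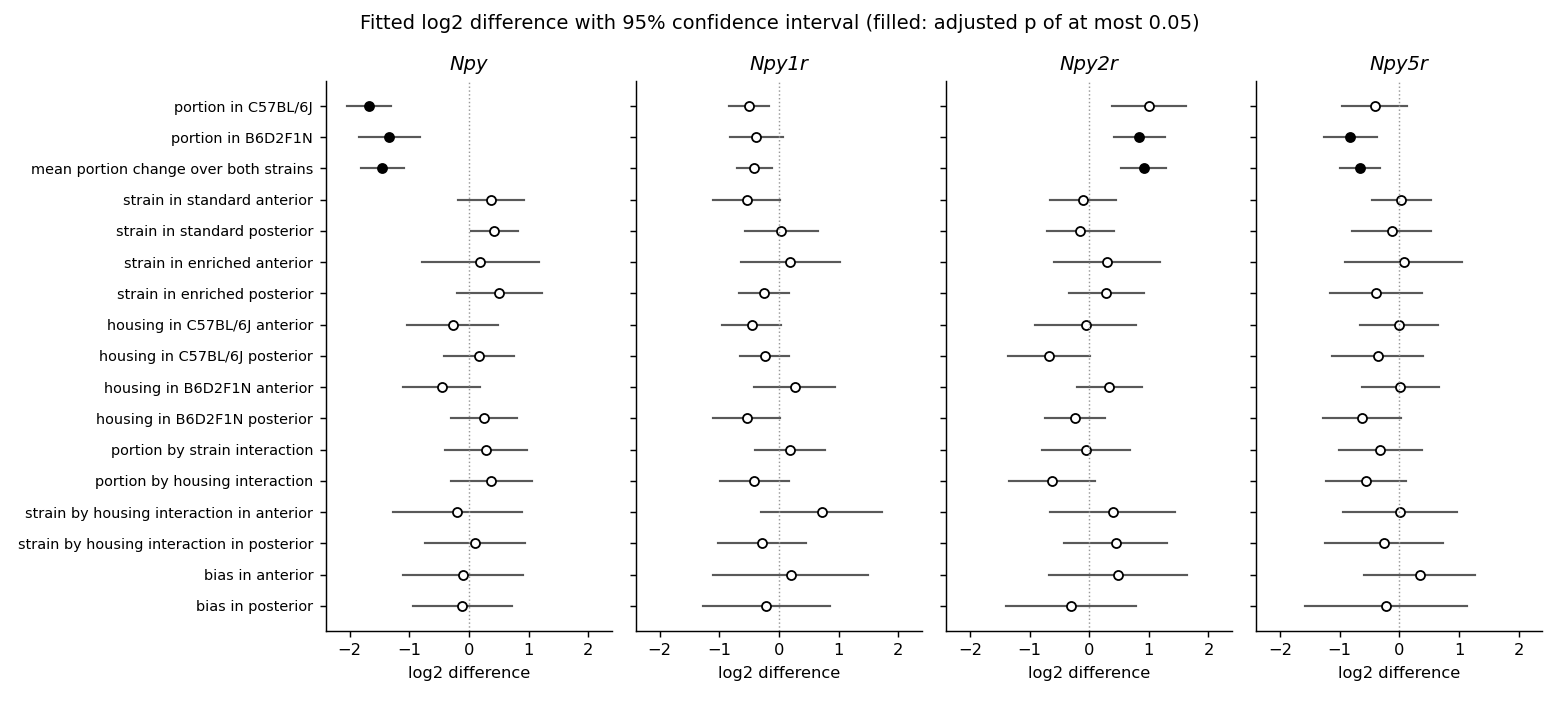
Log2 difference (x axis) of each gene in the 17 comparisons (y axis), with bars for 95% confidence intervals and filled points for an edgeR adjusted p of at most 0.05. Positive values mean higher in the posterior portion, in B6D2F1N mice, in enriched housing or in pessimists; the 7 filled points are all portion differences.

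Optimists and pessimists were compared with terms for strain and housing. The anterior portion gave 4 optimists and 4 pessimists and the posterior portion 4 and 5. These are the extremes of the optimism score, and 10 of the 19 mice belonged to neither group. All 4 optimists lived in standard housing and the only pessimist there was B6D2F1N standard mouse 1, so that bias and housing were separated by this mouse alone. No member was called in either portion (8 tests, lowest edgeR adjusted p = 0.883, 0 at an unadjusted p under 0.05 and 0 called by DESeq2), where 0.00414% (anterior) and 0.00396% (posterior) of all genes were. In each portion this share was 1 gene, Xist, at log2 differences of -13.7 and -14.6. Xist had 0 counts in both libraries of B6D2F1N standard mouse 1, the same mouse on which the separation of bias and housing rests. Anterior Npy was 248 to 359 CPM in optimists and 74.0 to 265 CPM in pessimists, with a log2 difference of -0.09 once strain and housing were in the model (95% confidence interval -1.10 to 0.91). The interval of Npy2r in the anterior portion was -0.67 to 1.64, around a difference of 0.49. In the posterior portion Npy2r was 78.5 to 138 CPM in optimists and 40.6 to 101 CPM in pessimists, which overlapped, with a difference of -0.30 (95% confidence interval -1.39 to 0.79). Without B6D2F1N standard mouse 1 these differences could not be estimated.

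Across mice, Npy2r and Npy5r moved together in the posterior portion. Over 19 posterior libraries, the log2 CPM of Npy2r and Npy5r correlated with Pearson's r of 0.719 (permutation p = 0.00042, adjusted p = 0.00588) and Spearman's rho of 0.819 (permutation p = 4e-05, adjusted p = 0.00056). Without the 2 libraries farthest from the median of Npy2r, r was 0.60, and for deviations from the strain and housing group means it was 0.755 (adjusted p = 0.00091). B6D2F1N enriched mouse 1 and C57BL/6J enriched mouse 3 had the lowest Npy2r levels (40.6 and 41.5 CPM) and low Npy5r levels (5.04 and 7.04 CPM). In 16 anterior libraries the same relation had an r of 0.161 (permutation p = 0.558, adjusted p = 0.741) and a rho of 0.094 (p = 0.733, adjusted p = 0.837). The difference between the portions in this relation was not tested.

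**Figure D5:**
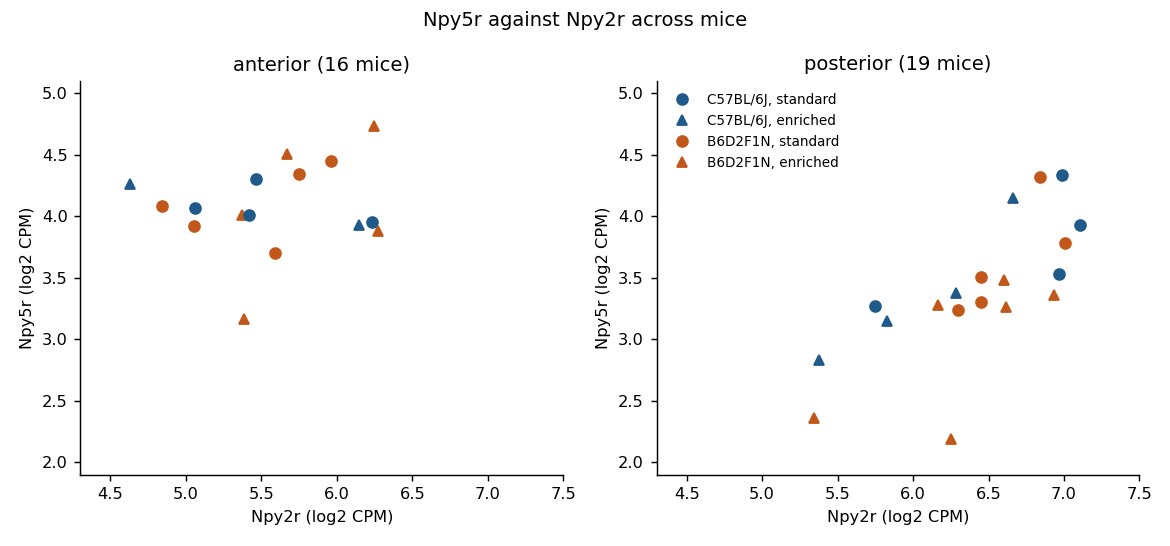
Log2 CPM of Npy5r (y axis) against Npy2r (x axis) in each anterior (left, 16 mice) and posterior library (right, 19 mice), with colours for strain and shapes for housing. Posterior points rise together (r = 0.719), anterior points do not line up (r = 0.161).

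Npy1r and Npy2r had an r of 0.445 in the posterior portion (permutation p = 0.0564, adjusted p = 0.158) and a rho of 0.516 (p = 0.0258, adjusted p = 0.120), which did not pass. Npy1r and Npy5r correlated with an r of 0.597 in the posterior portion (permutation p = 0.00686, adjusted p = 0.0320) and a rho of 0.519 (p = 0.0239, adjusted p = 0.120). For deviations from group means, r was 0.443 (adjusted p = 0.165), no longer past the threshold. In the anterior portion, r was 0.506 (permutation p = 0.0471, adjusted p = 0.158) and 0.235 without the 2 farthest libraries. Npy levels followed those of Sst in the posterior portion, with an r of 0.672 (permutation p = 0.00178, adjusted p = 0.0125), a rho of 0.477 (p = 0.0414, adjusted p = 0.145) and an r of 0.444 without the 2 farthest libraries. For deviations from group means, r was 0.787 (adjusted p = 0.0007) and rho 0.675 (adjusted p = 0.0123). In the anterior portion Npy and Sst had an r of -0.07 (permutation p = 0.787, adjusted p = 0.919). No relation of Npy with a receptor gene passed the threshold in either portion. On the log2 CPM scale r lay between -0.22 and 0.32, and for deviations from group means it reached 0.423 for Npy with Npy2r in the posterior portion (permutation p = 0.0699, adjusted p = 0.165). In all, 14 relations were computed on log2 CPM and again for deviations from group means, with 100000 resamples each, two-sided. For deviations, resampling ran across all groups of a portion and made no allowance for the subtracted means. The p-values given for deviations may therefore be too small. The p-values were adjusted over the 14 relations of a scale, separately for r and rho, and not across scales. The libraries are mixtures of cells, and the part of tissue make-up in these relations was not tested.

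Over all 35 libraries, the genes whose log2 CPM pattern was most like that of each member were ranked among 15993 genes by Pearson's r, as a description without a test. For Npy they were Blnk (r = 0.846), Stac2 (0.845), Dpy19l1 (0.828), Il12a (0.814) and Nrep (0.814). For Npy1r they included Slc39a10 (r = 0.807), Pcmt1 (0.804), Lrrtm2 (0.802) and Cacng3 (0.801). For Npy2r the likeness was lower, with Brinp3 (r = 0.693), Mgat4c (0.685), Gm5176 (0.681), Lpl (0.652) and Tenm2 (0.651). For Npy5r they were Clcn4 (r = 0.809), Ccdc127 (0.801), Acsl5 (0.80), Vmp1 (0.784) and Cdipt (0.778). The 35 values include 2 portions of the same mouse for 16 mice, and the portion differences are part of this likeness. After the mean of each strain, housing and portion group was subtracted, the first genes were Fam192a for Npy (r = 0.742), Pigh for Npy1r (0.864), Zfp334 for Npy2r (0.777) and Vmp1 for Npy5r (0.742). Il12a for Npy, Gm5176 for Npy2r and Vmp1 for Npy5r were among the first 5 on both scales.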

How the data were processed

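Single reads of 72 bases from low-input poly(A) libraries were counted per gene by the authors, who deposited raw counts. Per the labels and methods, reads were trimmed with Trimmomatic 0.38, aligned to GRCm38 with HISAT2 2.1.0 and counted with HTSeq 0.11.2. The annotation release and strand setting are not given in the sources used here. Of the entries of a library, 13.7 to 26.4% fell in no gene, 3.06 to 3.74% were ambiguous and 6.23 to 10.9% were not uniquely aligned, and these stayed out of library sizes.

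Genes with at least 10 counts in a fit were tested with edgeR 4.0.16 (TMM, quasi-likelihood F test) in R 4.3.3, with Benjamini-Hochberg adjustment and a threshold of 0.05. DESeq2 1.42.0 was an alternative. Portions were paired by mouse, since both libraries came from the same animal. Deviations from group means correlated with a median r of 0.0478 within a mouse (-0.104 to 0.222) and -0.0167 between mice. Strain, housing and bias were compared within portions. Replicates are separate mice. The paper states that mice of a strain shared cages and that playgrounds were connected to cages. No cage term was in the fits, so that cage mates were treated as independent. No libraries of the 595 pairs compared were identical. Levels are TMM-scaled CPM, with a prior count of 2 on the log2 scale. Intervals and floors for single counts cover counting error only. The edgeR script was tested on simulated data.

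Members were named by symbol in every comparison. Other genes come from pathway and marker lists, or from the 5 genes most like each member among those with a mean of at least 1 CPM, of which 1 is not reported here. Members and lists were chosen with earlier results of these data known. Genes of the lists at under 10 counts were not tested.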

Additional observations from a re-analysis of the deposited data

Results flagged for a closer look

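Among 28 combinations of a gene and a group of 4 to 6 libraries, 1 held a library far from the others by Dixon's criterion, which chance alone exceeds in about 1 in 20 groups. It was Npy2r in the posterior portion of C57BL/6J mice in standard housing, where mouse 1 had 53.7 CPM and the other 3 mice 125 to 138 CPM. The gap to the nearest mouse was 0.851 of the whole range, above the 95% critical value for 4 samples.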

How the results depend on the processing

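The alternatives changed the filter, the scaling, the software, the covariates and the mice. No difference of a member that was called changed its direction. DESeq2 put Npy1r in C57BL/6J mice (-0.49, adjusted p = 0.0454) and over both strains (-0.41, adjusted p = 0.0470) and Npy2r in C57BL/6J mice (1.01, adjusted p = 0.0165) past the threshold, as the edgeR fit without a count minimum did for Npy2r (1.01, adjusted p = 0.000784). In the pairing check without the mouse as a replicate block, Npy5r in B6D2F1N mice was at -0.77 (edgeR adjusted p = 0.0638), and no other member's call changed. With the mice of lower choroid plexus sums, a choice made after seeing the data that also tests fewer mice, the values in C57BL/6J were 1.53 for Npy2r, in B6D2F1N -1.22 for Npy, -0.92 for Npy1r, 0.79 for Npy2r and -0.91 for Npy5r, and over both strains -0.75 for Npy1r and -0.55 for Npy5r, each on the other side of the threshold than with all mice. The mean change fits with DESeq2 or without a mouse were also added after seeing the data. The cause was not tested. With the library number as a covariate, the housing differences in C57BL/6J mice moved most, in anterior libraries from -0.27 to -1.38 for Npy and from -0.06 to 0.99 for Npy2r, with none called.

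Leaving out 1 mouse gave -1.80 to -1.55 for Npy in C57BL/6J mice, and for B6D2F1N mice the range was -1.54 to -1.18, called in each fit. Npy2r ranged from 0.80 to 1.35 in C57BL/6J (called in 1 of 6 fits), from 0.71 to 1.05 in B6D2F1N mice (8 of 10), and Npy5r from -0.94 to -0.71 in B6D2F1N mice (3 of 10). Leave-one-out fits of the interactions over 32 libraries reused the dispersion trend of all libraries. The posterior relation of Npy1r with Npy5r fell to 0.443 for deviations from group means.

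Counts of genes called moved more than those of the members. DESeq2 called 1535 against 937 genes for the portion in C57BL/6J and 1994 against 1110 in B6D2F1N mice. For strain it called 254 against 90 and 392 against 94 in standard anterior and posterior, and 137 against 15 and 342 against 101 in enriched anterior and posterior libraries. For housing it called 100 against 0 and 319 against 4 in C57BL/6J anterior and posterior, and 8 and 13 against 0 in B6D2F1N libraries, where edgeR had an unadjusted p under 0.05 for 1418, 1553 and 1716 genes in the comparisons with 0 calls. It called 21 and 19 against 1 for bias in the anterior and posterior portion, 1 against 0 for the portion by housing interaction, and 3 and 15 against 0 for the strain by housing interactions. For the portion by strain and portion by housing interactions edgeR had an unadjusted p under 0.05 for 819 and 888 genes, and for strain by housing 1576 and 2335. Without a count minimum, edgeR called 57 genes for strain in enriched anterior libraries, 274 and 112 for housing in C57BL/6J mice, 8 for the portion by strain interaction and 22 and 79 for bias. A fit of all 4 groups of a portion gave 44 for strain in enriched anterior and 0 for housing in C57BL/6J posterior libraries, where the library number as a covariate gave 2. Both strains in 1 fit gave 613 for the portion in C57BL/6J mice. The mice of lower choroid plexus sums gave 299, 515 and 953 for the portion in C57BL/6J, in B6D2F1N and over both strains (2532 with all mice).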
